A study of Bos taurus with 7 samples.

Results

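The urea transporters, ammonia channels and water channels examined here are 10 genes of the 14964 distinct gene names on the array: the urea transporter genes SLC14A1 and SLC14A2, the Rh glycoprotein genes RHBG and RHCG, and the aquaporin genes AQP3, AQP4, AQP7, AQP8, AQP9 and AQP11. They were taken by gene symbol, with no rule on their values but with earlier results of these data known. Each is read by 1 probe of 60 bases. RNA of the rumen epithelium was measured in 7 Holstein calves on 7 single-colour Agilent arrays, 1 calf per array. In the HAY group, 3 calves (9, 10 and 13) were given forage. In the CON group, 4 calves (8, 11, 12 and 14) were not. The study deals with forage and starter feeding around weaning, and its design text puts the division into groups 3 weeks after weaning. No age, starter composition or sampling site within the rumen is given in the labels, so the comparison is between calves with and without forage under otherwise unstated conditions.

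In ruminants, urea made by the liver passes back from blood into the rumen, where bacterial urease splits it to ammonia, which the microbes use and the epithelium absorbs in part. SLC14A1 encodes the facilitative urea transporter UT-B, and SLC14A2 encodes the UT-A transporters known from the mammalian kidney. The aquaglyceroporins AQP3, AQP7 and AQP9 let water, glycerol and urea through, AQP8 conducts water and ammonia, AQP4 is a water channel, and AQP11 is a divergent aquaporin of intracellular membranes in rodents. RHBG and RHCG are ammonia channels known from kidney collecting duct cells in rodents and humans.

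Since each gene rests on a single probe, the probes of the members with the clearest differences or the closest relations are shown, in lower case from 5′ to 3′, with the coordinates that the deposited files give on UMD_3.1. The AQP7 probe lies at chr8:76469468-76469527 on the minus strand. The AQP3 probe lies at chr8:76526980-76527378 on the minus strand, an interval of 399 bases for a probe of 60, so its letters are not contiguous in that genome. The SLC14A2 probe lies at chr24:45860129-45860188 on the plus strand. The SLC14A1 probe lies at chr24:45923673-45923732 on the plus strand, and only its first 30 bases are shown.
AQP7: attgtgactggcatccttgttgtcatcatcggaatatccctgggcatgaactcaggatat
AQP3: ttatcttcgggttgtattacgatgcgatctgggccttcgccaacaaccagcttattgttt
SLC14A2: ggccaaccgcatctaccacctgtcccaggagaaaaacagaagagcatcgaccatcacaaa
SLC14A1, first 30 bases: gactgaaagttagtgtcagattgcttctga

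The full SLC14A1 probe holds a stop codon in each of its 3 forward frames, while all 3 forward frames of the AQP3 and SLC14A2 probes and 2 of those of the AQP7 probe are open. No member's probe shared more than 8 consecutive bases with another member's probe. The guanine and cytosine content ran from 35% in the SLC14A1 and AQP11 probes to 55% in the RHBG probe. The probes of SLC14A1 and SLC14A2 are 63485 bases apart, and 2 other genes start between these genes in the RefSeq table of ARS-UCD2.0. The probes of AQP3 and AQP7 are 57453 bases apart, and no other gene starts between them in that table. Exon and UTR annotation of UMD_3.1 was not used here.

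Across the arrays, 81.5 to 84.6% of spots were well above background by the scanner software's own call, and the median processed signal ranged from 215 to 241 intensity units in HAY and from 182 to 229 in CON. All 12 keratinised epithelium markers, among them KRT5, KRT14 and TP63, were measurable. Their linear signals, each relative to the 75th percentile of its array, summed to 620.0 to 750.0 in HAY and 488 to 678 in CON, so the labelled tissue carried its defining markers in both groups. Markers of other tissue layers differed between the groups. All 8 smooth muscle markers had lower means in HAY (6 at an unadjusted limma p under 0.05), and their summed signal was 11.7 to 26.8 in HAY and 28.5 to 63.9 in CON. All 10 fibroblast and matrix markers likewise had lower means in HAY, with sums of 16.2 to 73.3 in HAY and 49.3 to 237 in CON. The direction was not the same in every list. Of 7 nerve and glia markers 5 were tested, and all 5 had higher means in HAY. Their median log2 difference was 0.21, and 1 had an unadjusted limma p under 0.05. In bulk tissue, fewer cells of a type and less RNA per cell cannot be told apart. The HAY arrays lay in row 1 of the slide and the CON arrays in row 2, so an effect of the row and one of the forage cannot be told apart either.

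Of the 10 members, 7 were well above background on all 7 arrays, as were 77.5% of all probes. AQP9 was well above background on 2 arrays, and AQP4 and AQP11 were well above background on none, as were 11.1% of all probes. The 7 members measured on all arrays are those that entered the test between feeding groups, in which a gene needed to be well above background on at least 3 arrays.

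None of the 7 tested members passed the threshold of 0.05 after Benjamini-Hochberg adjustment over all 12570 genes with limma, where 0.00796% of genes (1 gene, not a member) passed. AQP7 was the member with the smallest unadjusted p, and the only one under 0.05, where 14.0% of all genes stood. Of the 7, 5 had higher and 2 had lower means in HAY, beside 6856 higher and 5714 lower among all 12570 genes. Their median log2 difference, HAY minus CON, was 0.37, beside 0.03 over all genes tested. That median is the value of AQP3, which was 0.04 without HAY calf 13. Errors written after ± are SDs over the calves of a group, n = 3 in HAY and n = 4 in CON. The values below are log2 signals for which 0 is the 75th percentile of the calf's own array, so a value compares calves for 1 probe and not 1 gene with another.

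**Figure D1:**
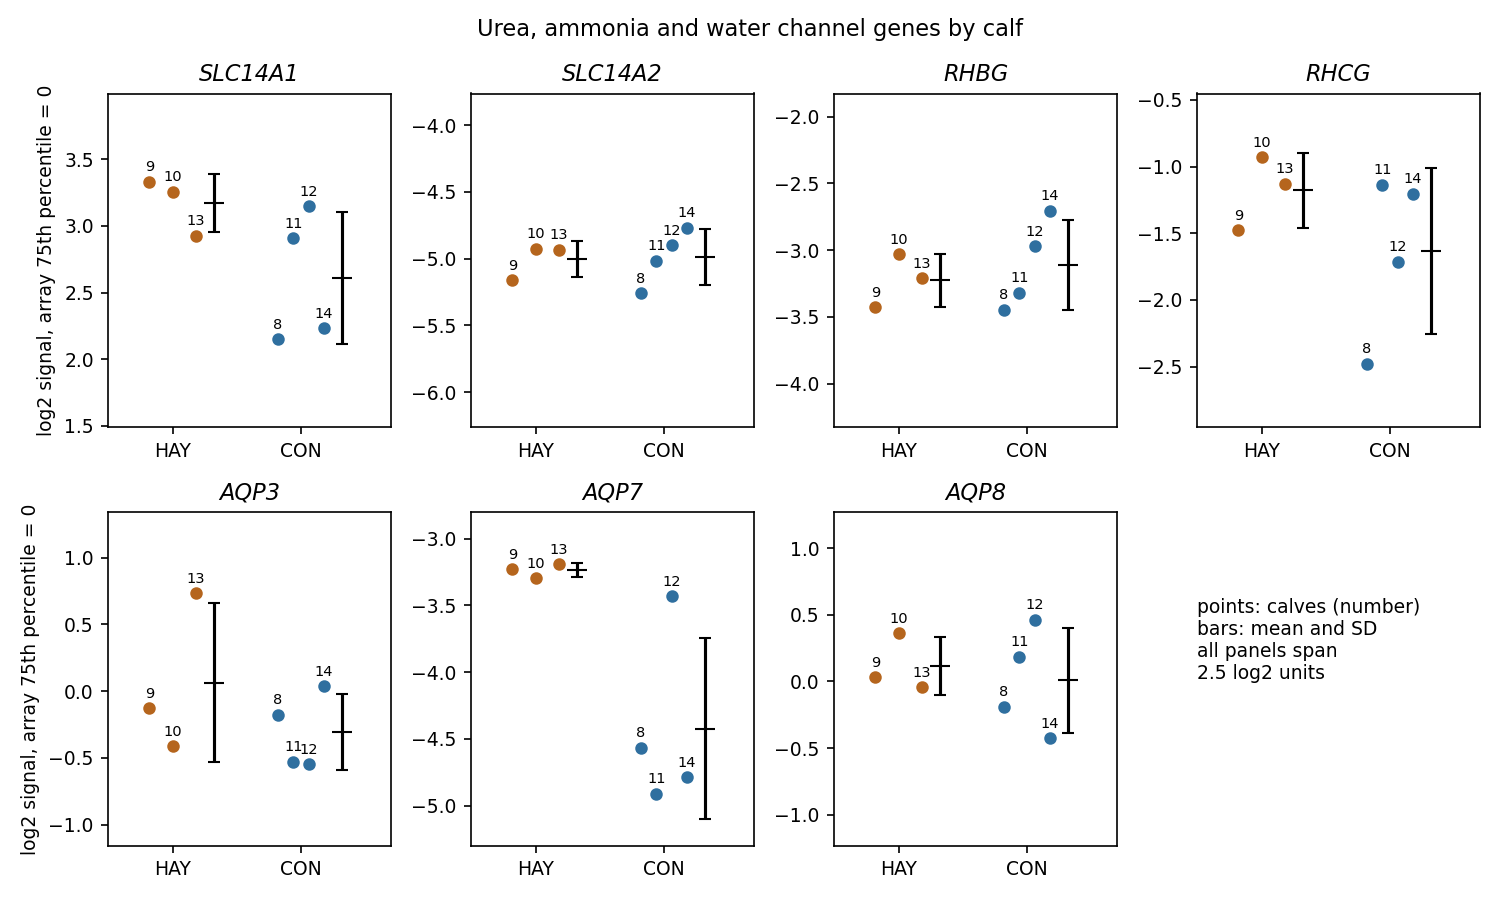
Log2 signal of the 7 tested members by calf, relative to the 75th percentile of each array (vertical axis), in HAY and CON calves. Points are calves with their numbers and bars are the mean and SD. All panels span the same number of log2 units. In the AQP7 panel the 3 HAY points lie together above the 4 CON points, and in the other panels the groups overlap.

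Urea transporters come first. SLC14A1, the UT-B gene and the source of the Kidd blood group antigens in humans, had log2 signals of 3.33, 3.26 and 2.93 in HAY calves 9, 10 and 13, against 2.15, 2.91, 3.15 and 2.23 in CON calves 8, 11, 12 and 14. CON calf 12 lay above HAY calf 13, so the groups overlapped, while CON calves 8 and 14 lay well under every HAY calf. The means and SDs were 3.17 ± 0.22 in the 3 HAY calves and 2.61 ± 0.49 in the 4 CON calves. The log2 difference was 0.56 (SE 0.28, 95% interval -0.08 to 1.21), which is 1.48-fold (limma unadjusted p = 0.0782, adjusted p = 0.406). An interval that runs from 0.945-fold to 2.31-fold leaves an equal level and a doubling both within it. Without CON calf 12 the SLC14A1 difference was 0.74 and the unadjusted limma p was 0.0226. With arrays centred on their median the difference was 0.63 at an unadjusted limma p of 0.0496. That centring also raised the median difference of all genes by 0.06. Of the 16 alternatives, these 2 were the only ones with an unadjusted limma p under 0.05 for SLC14A1. The SLC14A1 difference fell to 0.41 without CON calf 8, 0.44 without CON calf 14 and 0.47 with quantile normalization. Part of it thus rested on CON calves 8 and 14.

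SLC14A2, the UT-A gene, gave a dim but measurable signal, with processed intensities of 52.7, 62.1 and 71.7 in HAY calves 9, 10 and 13 and of 48.4, 57.7, 51.2 and 72.0 in CON calves 8, 11, 12 and 14. The lowest intensity called well above background on these arrays was 9.02 to 12.2 units. On the log2 scale the groups stood at -5.01 ± 0.13 in the 3 HAY calves and -4.98 ± 0.21 in the 4 CON calves. The difference was -0.02 (SE 0.16, 95% interval -0.39 to 0.35, limma adjusted p = 0.969), and its sign depended on the processing. The interval bounds any difference in the SLC14A2 signal between the groups to 0.762-fold at the low end and 1.28-fold at the high end.

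Of the ammonia channels, RHBG had log2 signals of -3.43, -3.03 and -3.21 in HAY calves 9, 10 and 13, and of -3.45, -3.32, -2.97 and -2.71 in CON calves 8, 11, 12 and 14. The groups lay over each other, CON calf 8 being the lowest and CON calf 14 the highest of all calves. The log2 difference was -0.11 (SE 0.21, 95% interval -0.61 to 0.38, limma adjusted p = 0.849). RHCG had log2 signals of -1.48, -0.93 and -1.13 in HAY calves 9, 10 and 13, against -2.48, -1.14, -1.71 and -1.20 in CON calves 8, 11, 12 and 14. CON calf 8 lay below all other calves, and CON calves 11 and 14 lay among the HAY calves. RHCG averaged -1.18 ± 0.28 in the 3 HAY calves and -1.63 ± 0.62 in the 4 CON calves, a log2 difference of 0.45 (SE 0.34, 95% interval -0.33 to 1.24, limma adjusted p = 0.577). It was 0.17 without CON calf 8, so that calf carried most of the RHCG difference.

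Among the aquaglyceroporins, AQP7 separated the groups. Its log2 signal was -3.23, -3.29 and -3.19 in HAY calves 9, 10 and 13, against -4.57, -4.91, -3.43 and -4.79 in CON calves 8, 11, 12 and 14. Every HAY calf lay above every CON calf, with a gap of 0.14 to CON calf 12, which stood apart from the other CON calves and near the HAY calves. AQP7 was the only one of the 7 tested members without overlap, a state that 11.8% of all tested genes shared in either direction and 6.55% in the direction of higher in HAY, against 5.30% in that of lower. The means were -3.24 ± 0.05 in the 3 HAY calves and -4.42 ± 0.68 in the 4 CON calves.

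The AQP7 log2 difference was 1.18 (SE 0.35, 95% interval 0.38 to 1.99), which is 2.27-fold higher in HAY with an interval from 1.30-fold to 3.97-fold (limma unadjusted p = 0.0098, adjusted p = 0.256). It thus did not pass over all genes, among which it had the 479th smallest p, and a share of 6.79% of all genes had an unadjusted p under 0.05 with a higher mean in HAY, and 7.17% with a lower one. The AQP7 spot had processed intensities of 201, 192 and 240 in HAY calves 9, 10 and 13 and of 78.1, 62.1, 142 and 71.0 in CON calves 8, 11, 12 and 14, close to the median signal of the array in HAY and below it in CON. The AQP7 difference was 0.73 when background was corrected by normexp with its offset of 50 (limma unadjusted p = 0.0139 in a fit across all genes). Without CON calf 12 it was 1.52 (limma adjusted p = 0.0800). Without calves 8 and 13 together it was 1.11 and its unadjusted limma p was 0.0545.

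AQP7 is known from fat cells and the endothelium of capillaries in mice and humans, so markers of those cells were read beside it. The 9 endothelial markers all had lower means in HAY (median -0.76 as a log2 difference), and their summed signal was 1.43 to 4.51 in HAY and 3.26 to 5.75 in CON. The direction in AQP7 was the opposite. Of the 5 adipocyte markers, PLIN1 was well above background on no array and ADIPOQ and CIDEC on fewer than 3, so that the 2 others, FABP4 and LEP, are all that could be summed, at 10.3 to 23.6 in HAY and 10.5 to 102 in CON. Of these 2, 1 had a higher and 1 a lower mean in HAY, neither at an unadjusted limma p under 0.05, so the sum gives no common direction. Nothing in these bulk values places the AQP7 signal in a cell type.

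**Figure D2:**
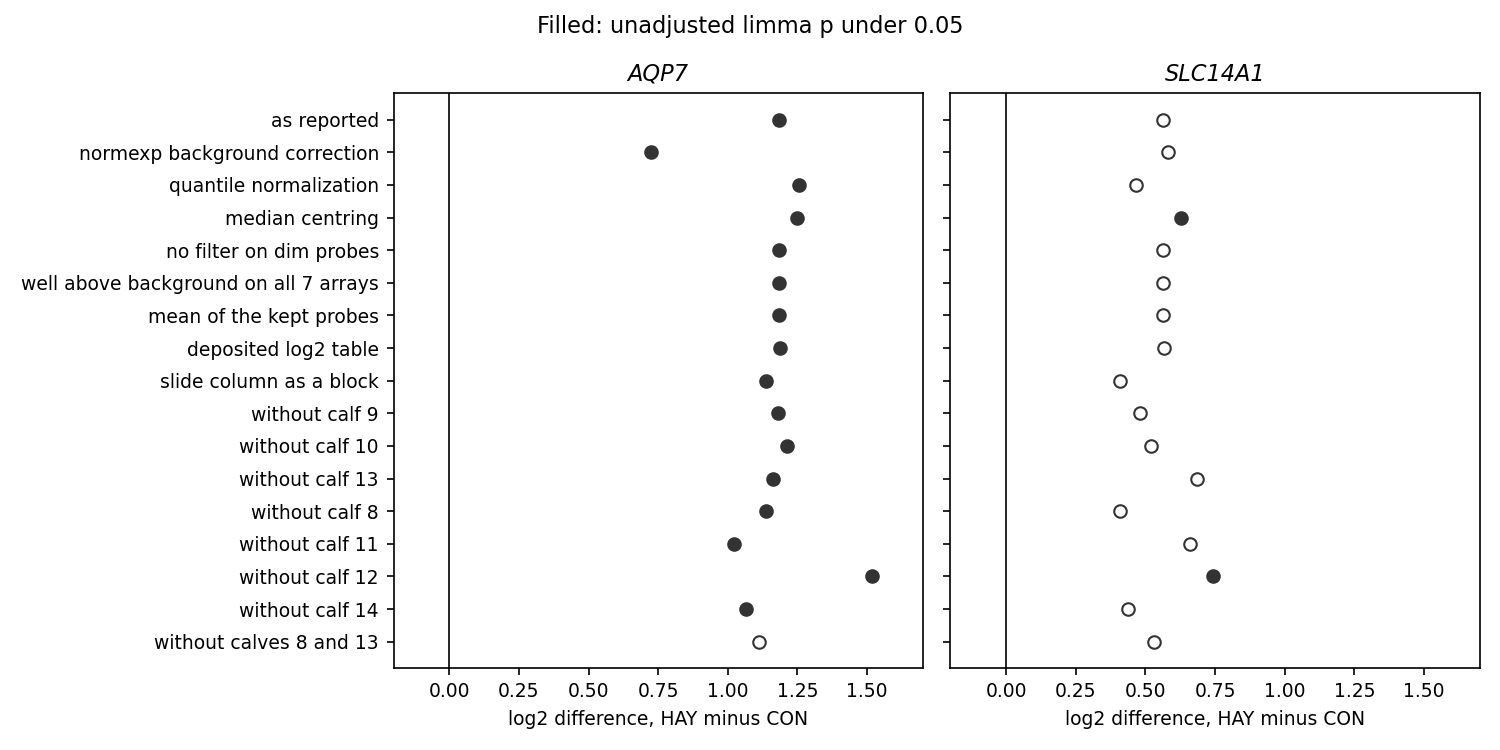
Log2 difference, HAY minus CON (horizontal axis), of AQP7 and SLC14A1 under the reported processing and each alternative (rows). Filled points have an unadjusted limma p under 0.05. All AQP7 points lie between 0.73 and 1.52 and all SLC14A1 points between 0.41 and 0.74.

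AQP3, the aquaglyceroporin of basal keratinocytes and the carrier of the GIL blood group antigen in humans, had log2 signals of -0.13, -0.41 and 0.73 in HAY calves 9, 10 and 13, and of -0.18, -0.53, -0.55 and 0.04 in CON calves 8, 11, 12 and 14. HAY calf 13 was the highest of all calves, and the other HAY calves lay within the CON range. The means were 0.06 ± 0.60 in the 3 HAY calves and -0.31 ± 0.28 in the 4 CON calves. The log2 difference was 0.37 (SE 0.29, 95% interval -0.32 to 1.05, limma adjusted p = 0.609) and 0.04 without HAY calf 13. Most of the AQP3 difference thus rested on that calf, while in the neighbouring gene AQP7 the 3 HAY calves lay between -3.29 and -3.19.

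AQP8 had log2 signals of 0.03, 0.36 and -0.04 in HAY calves 9, 10 and 13, and of -0.19, 0.19, 0.46 and -0.42 in CON calves 8, 11, 12 and 14. The CON calves enclosed the HAY calves on both sides. The log2 difference was 0.11 (SE 0.24, 95% interval -0.44 to 0.66, limma adjusted p = 0.876), so that differences beyond 0.736-fold to 1.58-fold lay outside the interval.

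Of the members at or below background, AQP9, known from liver and leukocytes in mammals, had processed intensities of 10.3, 19.4 and 6.19 in HAY calves 9, 10 and 13, and of 5.66, 6.90, 4.78 and 21.0 in CON calves 8, 11, 12 and 14. It was well above background in HAY calf 10 and CON calf 14 only, 1 calf of each group, at 1.91 and 1.78 times the lowest intensity so called on their arrays. Among 8 tested myeloid markers, 7 had lower means in HAY, with sums of 6.39 to 6.89 in HAY and 9.83 to 15.5 in CON. AQP9 lay too near background to be compared with these markers, and a myeloid part in its signal was not tested.

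AQP4 had processed intensities of 4.11 to 6.93 in HAY and 4.19 to 5.74 in CON. AQP11 had 2.51 to 4.21 in HAY and 1.90 to 6.28 in CON. Neither was well above background in any calf, and neither gives a fold between groups. On every array these intensities were below the lowest one called well above background, at 0.339 to 0.681 of it for AQP4 and 0.207 to 0.532 of it for AQP11. Their transcripts were not detectable with these probes at this signal over background.

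**Figure D3:**
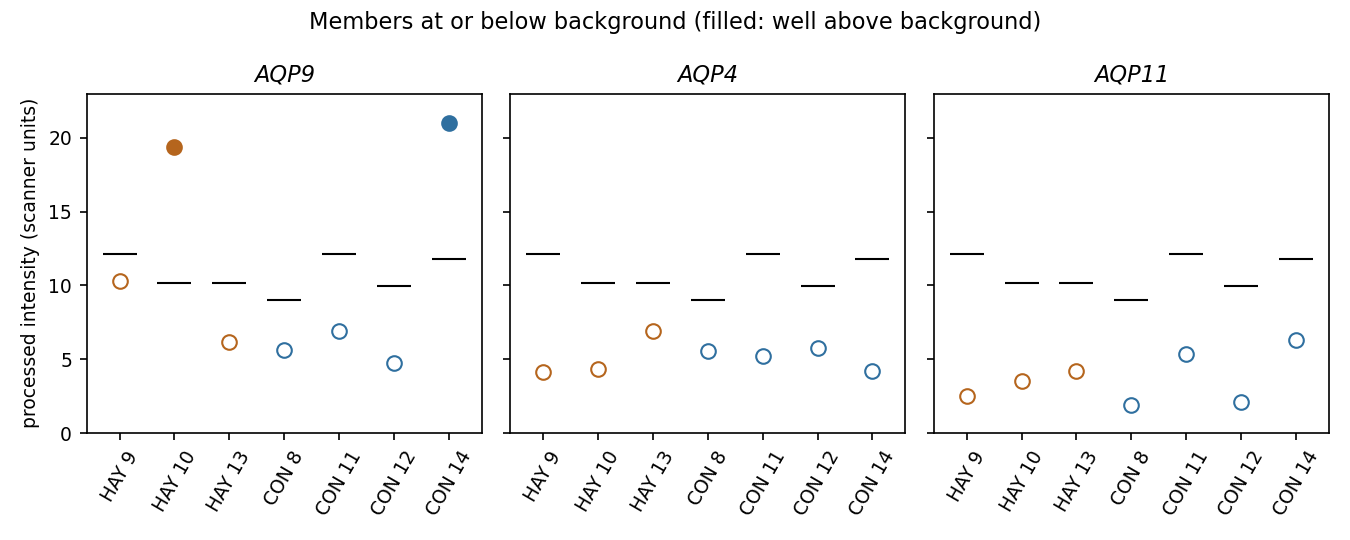
Processed intensity in scanner units (vertical axis) of AQP9, AQP4 and AQP11 in each calf. Filled points were called well above background, open points were not, and each horizontal dash is the lowest intensity called well above background on that array. AQP9 passes the dash in HAY calf 10 and CON calf 14, and AQP4 and AQP11 in no calf.

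With the reported processing 1 pair of members passed the adjusted threshold. Over 7 calves, this does not show that the other pairs vary apart. Over the 21 pairs of the 7 members measured in all calves, Pearson r ran from -0.56 to 0.92, and 15 pairs had an r above 0. The pair past the threshold was SLC14A2 with RHBG (r = 0.92, exact permutation p = 0.00218, adjusted p = 0.0458, Spearman rho = 1, exact permutation p = 0.000397, adjusted p = 0.00833, n = 7, two-sided, adjusted over 21 pairs). With the reported processing the 7 calves thus had the same order in SLC14A2 and RHBG, from CON calf 8 at the bottom to CON calf 14 at the top. The rho was 0.96 with normexp, 0.89 with quantile normalization and 0.86 with median centring, so the order was not the same there. The exact permutation p of these rho, adjusted over the pairs, was 0.0583, 0.258 and 0.5. The r was 0.96 without calves 8 and 9, the farthest from the median of SLC14A2, and 0.94 after centring within groups. With normexp, quantile normalization and median centring the r was 0.87, 0.92 and 0.91. The exact permutation p of these r, adjusted over the pairs, was 0.171, 0.113 and 0.125. Of the 12560 other genes with values in all calves, 43 (0.342%) had as high an r with SLC14A2 as RHBG had. SLC14A1 and AQP8 had an r of 0.79 (exact permutation p = 0.0353, adjusted p = 0.371) and a rho of 0.64 (exact permutation p = 0.139, adjusted p = 0.729), and without calves 8 and 14 the r was 0.27. SLC14A1 and AQP7 had an r of 0.76 (exact permutation p = 0.0655, adjusted p = 0.458) and a rho of 0.64 (exact permutation p = 0.139, adjusted p = 0.729), with an r of 0.58 without calves 8 and 14 and of 0.54 after centring within groups.

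CON calf 12 had the highest CON value in SLC14A1, AQP7 and AQP8 alike. It did not in RHCG or AQP3, where it was the next to lowest and the lowest CON calf. CON calf 8 had the lowest CON value in SLC14A1, SLC14A2, RHBG and RHCG, and also the highest smooth muscle and fibroblast marker scores of all calves, at 1.60 in each on the scale of mean log2 deviation. The part of those tissue layers in the member values was not tested.

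The genes whose profiles over the 7 calves lay closest to a member were sought among 11176 named genes well above background on all arrays, for the 4 members that spanned at least 1 log2 unit. Closeness is the root mean square difference of the profiles, each centred on its own mean. SLC14A1 was closest to ZNF814 (0.10), BREH1 (0.12) and CDC42EP3 (0.13), while its own root mean square deviation over the calves was 0.44. AQP7, with a deviation of 0.74, was closest to RB1 (0.25), SLC25A13 (0.29) and MFSD6L (0.30). AQP3, at 0.41, was closest to APMAP (0.11), YWHAG (0.13) and ARF5 (0.13). RHCG, at 0.49, was closest to SRXN1 (0.14), KCTD11 (0.16) and CEACAM19 (0.16). No gene appeared beside more than 1 member.

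Other aquaporins on the array gave no difference past the threshold, and no other Rh family gene was tested. Of 11 listed aquaporin and Rh family genes 7 were on the array and 6, all aquaporins, were tested. Of these, 5 had higher and 1 had lower means in HAY (median log2 difference 0.11), and none had an unadjusted limma p under 0.05. AQP1, the water channel of red cells and endothelium, had log2 signals of 2.88, 1.67 and 1.98 in HAY calves 9, 10 and 13, against 2.19 to 3.87 in the 4 CON calves, with calf 8 the highest. HAY calf 9 lay above CON calf 14, so the groups overlapped, and the log2 difference was -0.86 (SE 0.43, 95% interval -1.86 to 0.14, limma adjusted p = 0.408). The AQP1 difference had the sign of all 9 endothelial markers and the opposite sign to the 3 erythroid markers that were tested (median log2 difference 0.41), and the part of either cell type in it was not tested. AQP2, the vasopressin-regulated water channel of the kidney, had log2 signals of -0.47, -0.07 and 0.32 in HAY and of -0.48, -0.44, -0.22 and -1.03 in CON (log2 difference 0.47, SE 0.25, limma adjusted p = 0.447).

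**Figure D4:**
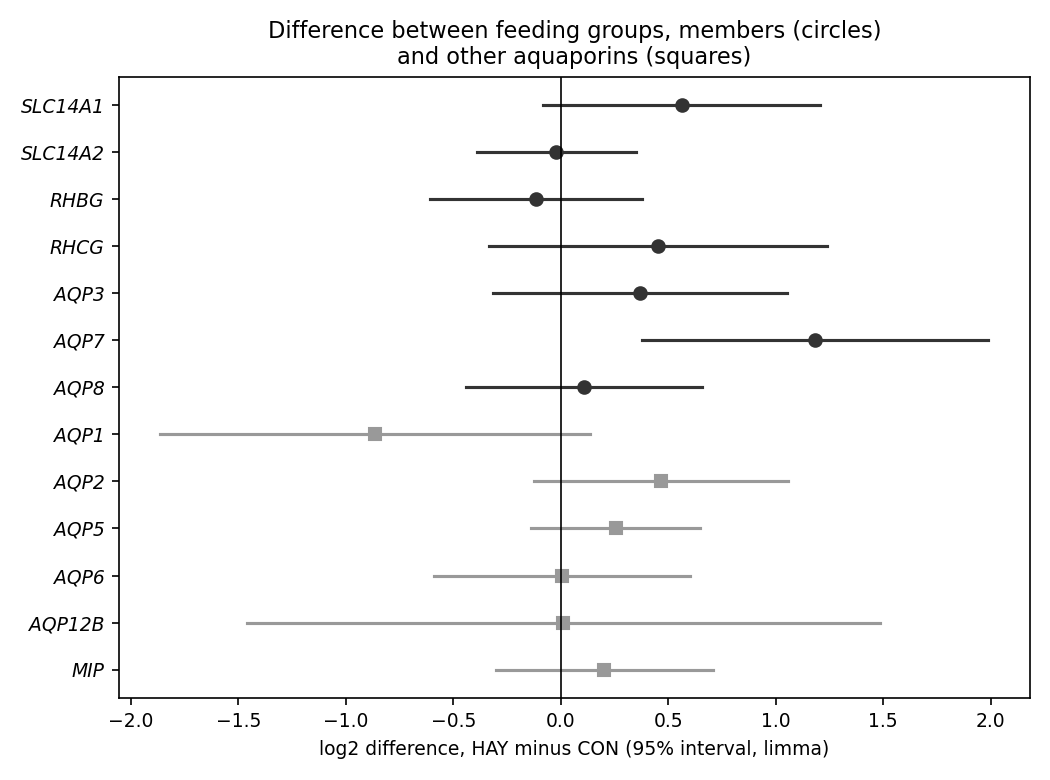
Log2 difference, HAY minus CON, with its 95% interval from limma (horizontal axis), for the 7 tested members (circles) and the 6 other aquaporins tested (squares). Only the AQP7 interval, 0.38 to 1.99, lies wholly on one side of 0.

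Enzymes that make or use urea and ammonia were read beside the channels. Of 14 listed genes 12 were tested, 3 with higher and 9 with lower means in HAY (median log2 difference -0.22), and none passed over all genes. At an unadjusted limma p under 0.05, 1 was higher and 2 were lower in HAY. ASS1, the argininosuccinate synthase of the urea cycle, had log2 signals of 1.42, 1.29 and 1.55 in HAY calves 9, 10 and 13, against -0.48, 0.43, 0.40 and 0.80 in CON calves 8, 11, 12 and 14. The groups did not overlap in ASS1, and the log2 difference was 1.13 (SE 0.29, 95% interval 0.45 to 1.81, limma adjusted p = 0.232). ARG2, the mitochondrial arginase that releases urea from arginine, had log2 signals of -6.06, -4.00 and -5.70 in HAY and of -4.48, -2.90, -1.95 and -2.20 in CON. HAY calf 10 lay above CON calf 8, and the difference was -2.37 (SE 0.71, limma adjusted p = 0.26), or -1.46 with normexp. OAT, ornithine aminotransferase, averaged -1.13 ± 0.54 in the 3 HAY calves and -0.04 ± 0.69 in the 4 CON calves (difference -1.09, SE 0.41, limma adjusted p = 0.315). The unadjusted limma p of OAT was 0.102, 0.0889 and 0.0592 without calves 10, 13 and 14, and 0.129 without calves 8 and 13 together, where the difference was -0.66.

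Potassium and sodium transporters and cation channels, several of which can carry ammonium in place of potassium, gave 13 tested genes of 17 listed, 8 with higher and 5 with lower means in HAY (median 0.00). At an unadjusted limma p under 0.05, 2 were higher and 2 were lower, and none passed over all genes. ATP1B1, the beta subunit of the sodium pump, had log2 signals of -0.31, -0.55 and -0.71 in HAY calves 9, 10 and 13, all below the 0.30, -0.03, 0.39 and 0.81 of CON calves 8, 11, 12 and 14 (difference -0.89, SE 0.22, limma adjusted p = 0.219). TRPM6, a magnesium-permeable channel, averaged -3.05 ± 0.18 in the 3 HAY calves and -3.83 ± 0.40 in the 4 CON calves without overlap (difference 0.79, SE 0.23, limma adjusted p = 0.259). KCNK5, an acid-sensitive potassium channel, differed by 0.37 (SE 0.13, limma adjusted p = 0.297) without overlap. Its unadjusted limma p was 0.0686 with the slide column as a block and 0.0522 without calf 8, the difference being 0.35 in both. It was 0.0918 without calf 10 and 0.0758 without calves 8 and 13. ATP12A, the non-gastric proton-potassium pump, could be measured well above background in 1 HAY calf and all 4 CON calves. Its log2 signals were -9.40, -9.58 and -5.12 in HAY and -4.80, -1.61, -5.58 and -4.48 in CON, with a difference of -3.91 (SE 1.30, limma adjusted p = 0.285), or -1.25 with normexp at an unadjusted limma p of 0.0569. The size of the ATP12A difference is not measured. HAY calves 9 and 10 lay below the lowest signals called well above background on their arrays, -7.28 and -7.54. With 1 HAY calf well above background, the gene reached the 3 arrays needed for testing only through CON calves.

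Of the 12 osmolyte and cell volume genes, all tested, 7 had higher and 5 had lower means in HAY (median 0.10). SGK1, a kinase that raises sodium channel activity, was the one with an unadjusted limma p under 0.05, at -3.86 ± 0.17 in the 3 HAY calves and -4.38 ± 0.20 in the 4 CON calves (difference 0.52, SE 0.16, limma adjusted p = 0.27), or 0.26 with normexp, where it no longer had an unadjusted limma p under 0.05. Of the glycerol handling genes, the substrates' enzymes beside the aquaglyceroporins, 8 of 10 were tested, with 6 higher and 2 lower means in HAY (median 0.31). MGLL, which frees glycerol and a fatty acid from monoglycerides, had log2 signals of -1.19, -1.48 and -2.74 in HAY, all below the -0.66, -0.85, -0.52 and -0.83 of CON calves 8, 11, 12 and 14 (difference -1.09, SE 0.35, limma adjusted p = 0.274), and the difference was -0.62 without HAY calf 13.

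Over the 5 lists together, 9 of 51 tested genes (17.6%) had an unadjusted limma p under 0.05, beside 14.0% of all genes. Of these 9, 4 were higher and 5 were lower in HAY. The 5 include ATP12A, which passed the filter only with the help of CON calves and whose difference is not measured. The groups did not overlap in 6 of the 51 genes (11.8%), beside 11.8% of all genes.

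**Figure D5:**
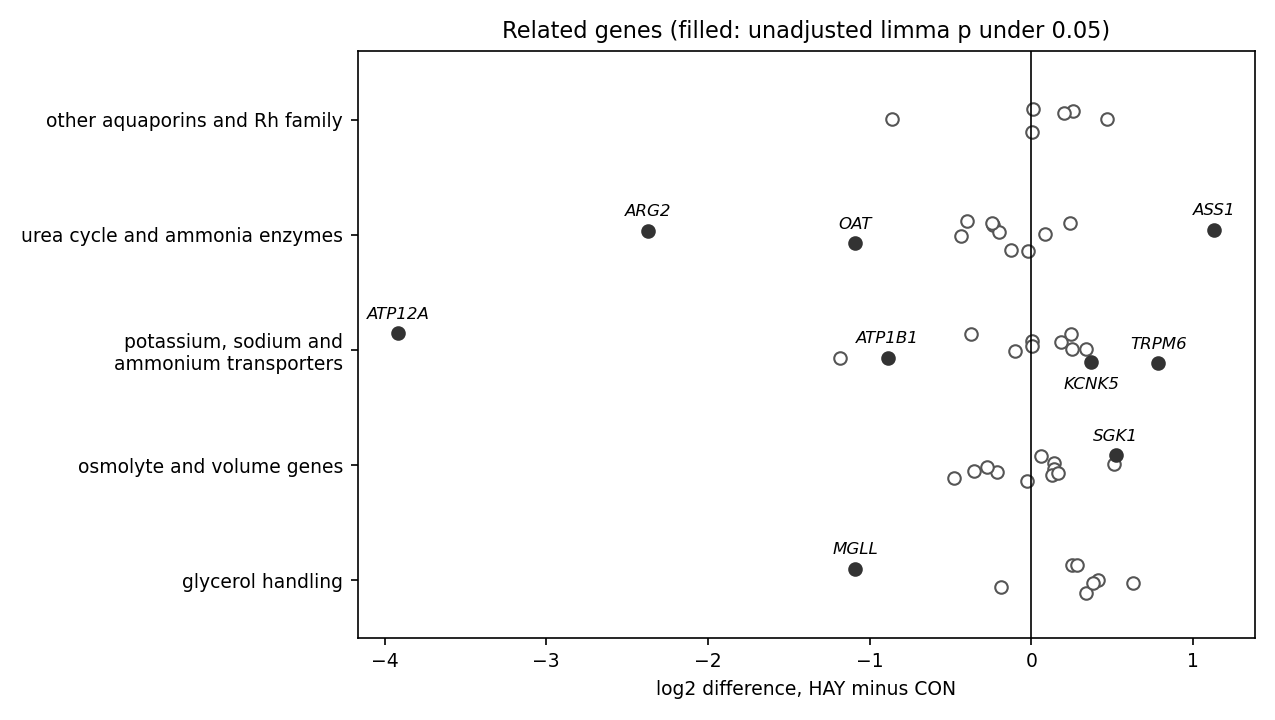
Log2 difference, HAY minus CON (horizontal axis), of each tested gene of the 5 related lists (rows). Filled and named points have an unadjusted limma p under 0.05. ASS1, at 1.13, lies farthest to the higher side and ATP12A, at -3.91, farthest to the lower side. With normexp ATP12A is at -1.25 and ARG2, at -1.46, lies farther.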

How the data were processed

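Each calf gave 500 ng of total RNA for Cy3 labelling, per the labels' protocols. The authors deposited spot intensity from Agilent Feature Extraction (9.5 in the submitters' processing notes), background-subtracted and detrended, with no scaling across arrays. A table of log2 values deposited for the series matched the log2 intensity minus each array's 75th percentile (SD of the difference at most 0.000352). Its column medians were -3.20 to -3.12 in HAY and -3.11 to -3.08 in CON, so scale and direction are settled and genes are not centred. The scanner software's flags are other values of 0 or 1, per the file headers.

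Control spots and outlier spots were left out, spots of a probe were averaged as log2, and the array's 75th percentile was subtracted. Probes were named through RefSeq accessions (11194 of 15008 matched) or kept their name, with the brightest probe per gene. Genes well above background on at least 3 of 7 arrays (12570) were fitted with limma 3.58.1 in R 4.3.3, HAY against CON, with Benjamini-Hochberg adjustment over all genes. The fit was tested on simulated data. Each calf is a separate animal, and the number of arrays limits the precision. All arrays lay on 1 slide. Members and lists were chosen with earlier results of these data known. Named genes were all members, up to 4 genes per related list by smallest unadjusted p under 0.05 (otherwise 2), and the 3 closest profiles. Alternatives were normexp (offset 50), quantile normalization, median centring, 2 filters, probe means, the deposited table, slide column as a block, and leaving out calves. CON calf 8 was alone in its slide column, so the block and leaving out calf 8 gave the same differences and are not separate checks of them. Median centring of the pair correlations and the count of genes correlated with SLC14A2 were added after seeing the data.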

Additional observations from a re-analysis of the deposited data

How the results depend on the processing

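Under the 16 alternatives AQP7, SLC14A1, AQP3 and RHCG kept a higher mean in HAY, AQP7 at 0.73 to 1.52 with an unadjusted limma p under 0.05 in 15 of them. The AQP7 groups did not overlap in any of them. Only normexp, quantile normalization and median centring could have brought overlap, since the others kept the same or nearly the same values or left calves out. SLC14A2 turned to 0.056 with quantile normalization and 0.044 with median centring. Leaving out single calves gave -0.11 to 0.057 for SLC14A2 (0.057, 0.0086 and 0.053 without calves 9, 12 and 14), -0.037 to 0.26 for AQP8 (-0.015 and -0.037 without calves 10 and 14) and -0.23 to 0.020 for RHBG (0.020 without calf 14). No member passed the adjusted threshold under any of them. The members at an unadjusted limma p under 0.05 numbered 2 with median centring, 0 without calves 8 and 13, and 1 to 2 when each calf was left out, the second being SLC14A1 without calf 12. Those without overlap numbered 2 without calves 8 and 13 and 1 to 2 when each calf was left out. Over all genes, 4 passed with quantile normalization, 2 with the slide column as a block, 5 without calves 8 and 13, and 1 to 21 when each calf was left out (21 without calf 14). The genes with an unadjusted limma p under 0.05 numbered 749 without calves 8 and 13 and 984 to 2344 when each calf was left out (984 without calf 13, 988 without calf 10). Median centring gave 1240 higher and 774 lower in HAY, against 854 and 901, and the slide column as a block 665 and 1145. No pair of members passed with normexp or quantile normalization (0 in each). No paired analysis was possible because the calf numbers do not recur across groups. Of the members, AQP7 moved most with normexp. Without calves 8 and 13 the unadjusted limma p was 0.0777 for TRPM6 and 0.0976 for SGK1, and without calves 9 and 10 in turn it was 0.0684 and 0.0704 for ATP12A, which has no value under the filter on all 7 arrays. The number of calves, 3 against 4, limits every interval.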
